A study of Rattus norvegicus with 24 samples.

Results

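The circadian clock genes examined here were Per1, Per2, Per3, Cry1, Cry2, Clock, Arntl, Nr1d1, Nr1d2 and Dbp, taken by gene symbol from the expression table of each library. They are 10 of the 23950 genes listed, and each symbol matched 1 row. They were followed across groups and library by library, since the hour at which tissue was collected is not given in the sources used here.

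RNA-Seq was performed on the nucleus accumbens (NAc), a striatal region of the reward pathway, cut with a brain matrix from Sprague Dawley rat pups at postnatal day 14 (P14). There were 24 libraries in 6 groups, with 4 pups from separate litters in each group, and the pups were male or female, with the sex of each not given. In utero oxycodone (IUO) pups came from F0 females gavaged with 10 mg/kg/day of oxycodone (oxy) for 5 days and then with doses raised by 0.5 mg/kg/day over 10 days to 15 mg/kg/day, which was kept up through mating, gestation and nursing. Postnatal oxycodone (PNO) pups came from F0 dams given 15 mg/kg/day only from birth to weaning, and saline (SAL) pups from control dams. The F1 groups are the pups of these dams. The F2 groups are the next generation, with sires from outside the study and F1 mothers that were not dosed directly. An F2 IUO or F2 PNO label therefore names the exposure of the F1 mother.

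The clock is a feedback loop of transcription. CLOCK, or its relative NPAS2, pairs with BMAL1 (the product of Arntl) and activates Per, Cry, Nr1d1, Nr1d2 and Dbp through E-box sequences, the PER and CRY proteins repress that activation, and the REV-ERB receptors encoded by Nr1d1 and Nr1d2 repress Arntl. In adult rodent tissues Dbp and Nr1d1 peak at about the opposite time of day from Arntl, which is why their levels are read as a mark of the hour, while Per1 also responds to neuronal activity and to glucocorticoids.

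Since regulation of these genes runs through short sequences near their starts, the RefSeq promoter windows of the members (GRCr8, from 250 bases before to 50 bases after a start) were searched on both strands for 5 motifs. The motifs were the E-box CACGTG, the E'-box variant CACGTT, the D-box TTATGNAA bound by DBP, the nuclear receptor element AGGTCA read by REV-ERB receptors, and the TGACG core of the cAMP response element, and no pair of them overlapped in the windows printed here. Windows were found for 9 of the 10 members, with Arntl listed under Bmal1. The windows of Dbp, Per1, Nr1d1 and Arntl are shown as 1 window each for an output gene, a PER repressor, a REV-ERB receptor and an activator, and those of Per2 and of the second Nr1d1 start because they hold the most matches and the only E-box. Capitals mark the motif matches, and each sequence runs 5′ to 3′ on the strand of its gene.
Dbp, chr1:105312006-105312305, plus strand: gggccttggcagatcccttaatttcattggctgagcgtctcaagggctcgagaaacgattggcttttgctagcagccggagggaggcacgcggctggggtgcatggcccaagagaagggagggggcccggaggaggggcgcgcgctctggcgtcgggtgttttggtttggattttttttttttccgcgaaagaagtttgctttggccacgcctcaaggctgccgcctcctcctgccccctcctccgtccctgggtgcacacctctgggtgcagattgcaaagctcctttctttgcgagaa
Per1, chr10:54304126-54304425, plus strand: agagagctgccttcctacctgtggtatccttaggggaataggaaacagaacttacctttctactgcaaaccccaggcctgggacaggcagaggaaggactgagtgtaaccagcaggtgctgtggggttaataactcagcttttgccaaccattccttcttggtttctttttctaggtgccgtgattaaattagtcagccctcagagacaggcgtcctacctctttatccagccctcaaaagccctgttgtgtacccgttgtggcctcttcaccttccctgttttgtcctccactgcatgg
Per2, chr9:99496944-99497243, minus strand: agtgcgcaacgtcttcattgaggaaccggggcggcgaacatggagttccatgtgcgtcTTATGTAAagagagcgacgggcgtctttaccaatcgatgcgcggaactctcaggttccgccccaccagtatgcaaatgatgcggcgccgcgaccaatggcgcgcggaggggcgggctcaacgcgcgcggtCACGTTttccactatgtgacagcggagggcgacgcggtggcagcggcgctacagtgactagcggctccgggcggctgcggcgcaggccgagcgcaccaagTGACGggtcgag
Nr1d1, chr10:84231763-84232062, minus strand: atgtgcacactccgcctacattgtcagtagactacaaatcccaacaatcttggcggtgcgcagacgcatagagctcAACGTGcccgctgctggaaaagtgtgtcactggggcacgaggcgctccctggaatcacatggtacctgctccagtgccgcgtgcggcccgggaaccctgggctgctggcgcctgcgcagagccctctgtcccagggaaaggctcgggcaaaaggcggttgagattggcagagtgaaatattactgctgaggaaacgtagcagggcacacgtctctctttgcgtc
Nr1d1 (the second start), chr10:84229405-84229704, minus strand: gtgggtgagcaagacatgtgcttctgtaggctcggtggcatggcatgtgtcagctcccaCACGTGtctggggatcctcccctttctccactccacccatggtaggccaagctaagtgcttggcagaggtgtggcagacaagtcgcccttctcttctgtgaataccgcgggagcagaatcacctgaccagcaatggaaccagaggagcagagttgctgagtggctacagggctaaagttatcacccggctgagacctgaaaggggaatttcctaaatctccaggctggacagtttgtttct
Arntl, chr1:176766078-176766377, plus strand: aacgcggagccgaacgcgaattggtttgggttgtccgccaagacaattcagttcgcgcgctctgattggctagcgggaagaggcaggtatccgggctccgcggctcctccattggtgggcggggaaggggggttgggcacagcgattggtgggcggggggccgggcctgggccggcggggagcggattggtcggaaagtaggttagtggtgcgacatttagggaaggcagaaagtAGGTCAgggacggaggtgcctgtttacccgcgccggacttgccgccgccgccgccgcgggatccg

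Over the 33469 promoter windows of this length, 6.42% held an E-box, 4.83% an E'-box, 3.66% a D-box, 16.2% the AGGTCA element and 21.2% the TGACG core. Among the 9 members with a window, 1 held an E-box (Nr1d1), 3 an E'-box (Per2, Cry2 and Nr1d1), 1 a D-box (Per2), 2 the AGGTCA element (Arntl and Nr1d2) and 3 the TGACG core (Per2, Per3 and Nr1d2). The windows of Dbp, Per1 and Clock held none of these letters, which says only that they were not within these bases. The Per1 window belongs to a start 5374 bases inside the RefSeq gene, whereas those of Dbp, Cry2, Nr1d2 and the first of Nr1d1 lie at the outer end of the gene.

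All 10 members were above 0 in all 24 libraries, and all passed the filter on low values (0.1 FPKM or more, reached by 4 libraries or more among those compared) in every comparison. FPKM counts fragments scaled by transcript length and by sequencing depth, so it can be set side by side between genes. Dbp, a clock output and a D-box transcription factor, was the highest of them at 70.4 ± 10.6 FPKM (mean ± SD, n = 24), above 94.1% of the genes that reached 0.1 FPKM in 4 libraries or more. Of the receptor genes, Nr1d1 was at 33.1 ± 4.396 and Nr1d2 at 11.6 ± 2.42 FPKM. Of the repressors, Cry2 stood at 30.0 ± 4.82, Per1 at 19.2 ± 4.74, Cry1 at 6.25 ± 0.987, Per2 at 4.56 ± 1.08 and Per3 at 4.12 ± 1.19 FPKM. Of the activators, Arntl was at 7.86 ± 1.27, between Per1 and Cry1 in mean level, and Clock at 1.51 ± 0.715 FPKM, the lowest of the members. Npas2, which can take the place of Clock, was at 12.3 ± 2.39 FPKM.

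The order of levels was clear at its top. Dbp exceeded Nr1d1 in 24 of 24 libraries with no overlap of the ranges (53.6 to 97.7 against 25.04 to 43.12 FPKM), and Cry2 exceeded Per1 in 24 of 24, although their ranges over libraries overlapped. Nr1d1 and Cry2 were neighbours that changed place between libraries, with Nr1d1 the higher in 17 of 24 and a log2 ratio of 0.15 ± 0.29 (SD). Per2 and Per3 likewise changed place, with Per2 the higher in 17 of 24 and a log2 ratio of 0.17 ± 0.37. Clock, at the foot of the order, ranged over 5.32-fold from 0.66 to 3.51 FPKM, the widest range of the members, against 1.72-fold for Nr1d1 and 1.82-fold for Dbp.

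Nr1d1 overlaps Thra in the RefSeq annotation, and whether reads were assigned by strand is not given in the sources used here. Thra stood at 219 ± 27.6 FPKM (SD, n = 24), far above Nr1d1, so the level of Nr1d1 is uncertain to that extent. Per2, Cry1, Cry2 and Clock overlap uncharacterised loci in the same annotation.

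**Figure D1:**
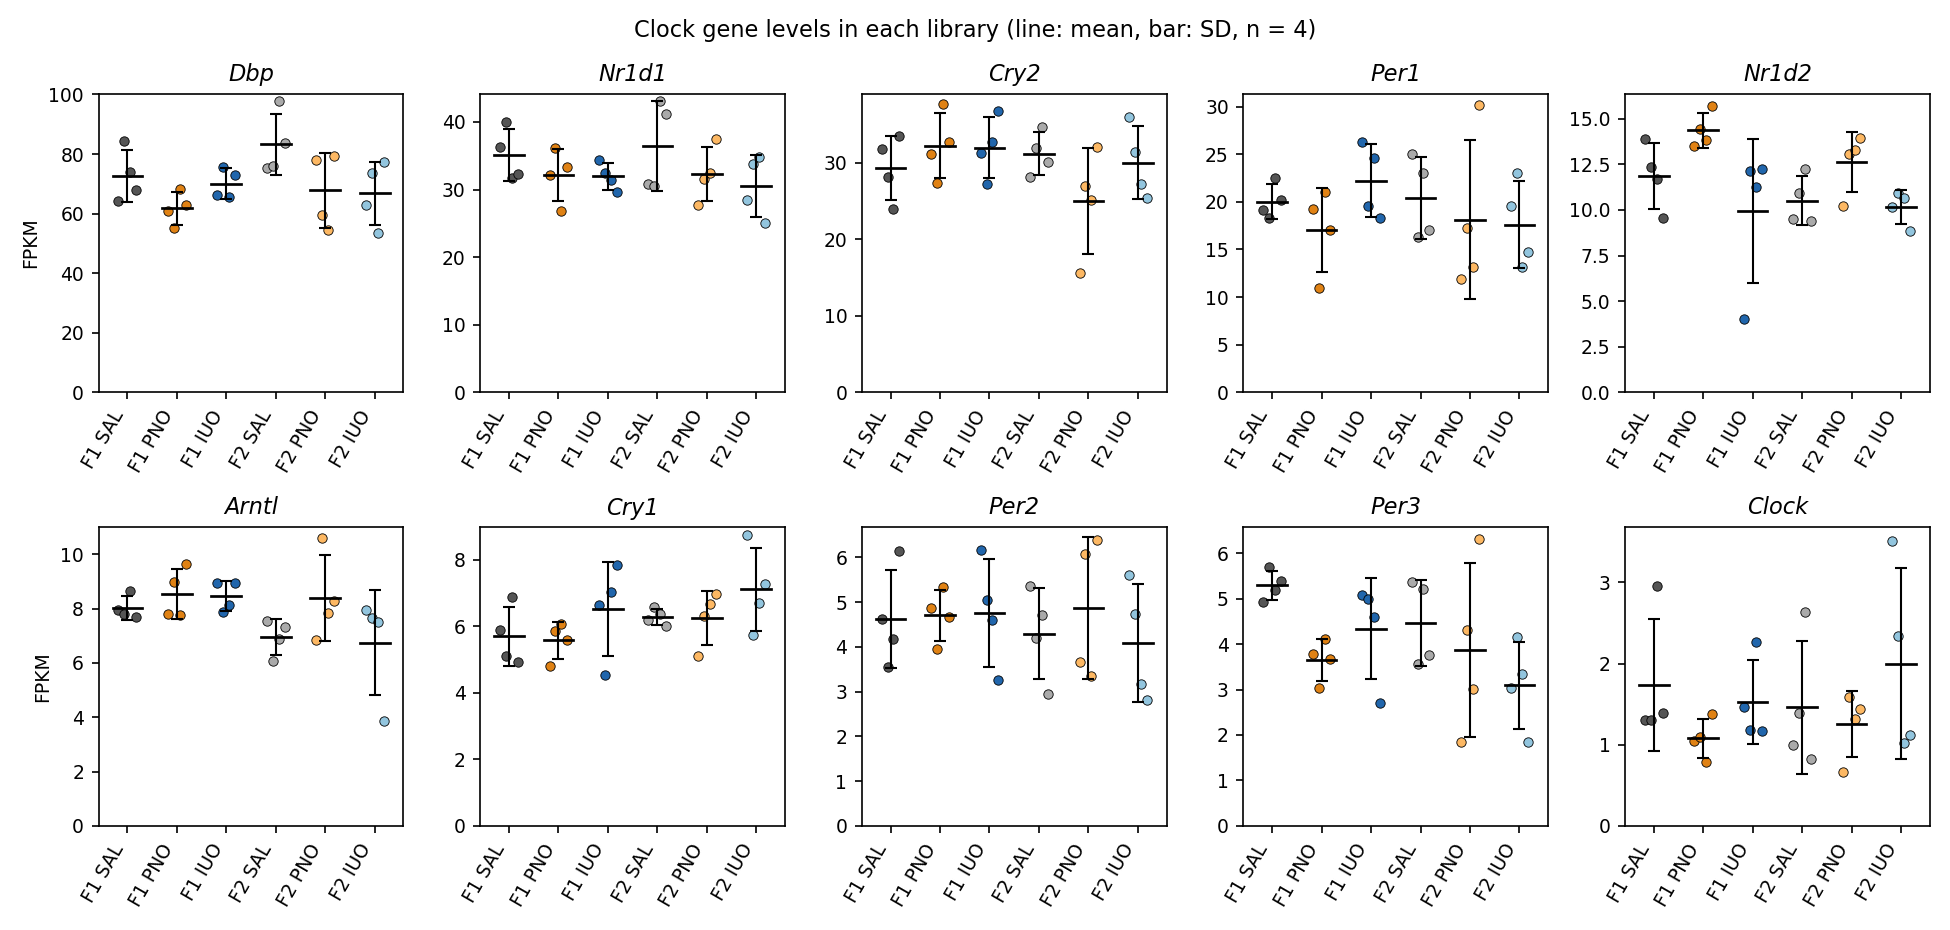
FPKM (linear axis from 0) of the 10 clock genes, ordered by mean level, in the 4 libraries of each of the 6 groups (dots), with the group mean (line) and SD (bar). Per3 was at 3.03 to 4.12 FPKM in F1 PNO and 4.92 to 5.69 in F1 SAL, and Nr1d2 had 1 library at 4.04 FPKM in F1 IUO.

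Several libraries stood apart from the rest, which bears on the single values of the clock genes. Over the 13551 genes that reached 1 FPKM in 12 libraries or more, the mean correlation of a library with the other libraries had a median of 0.944, and 4 libraries were under 0.93. These were F2 PNO replicate 1 (0.901), F2 IUO replicate 4 (0.919), F1 IUO replicate 1 (0.921) and F1 IUO replicate 4 (0.926). F2 PNO replicate 1 held the lowest value of the series for Cry2 (15.6 FPKM), Clock (0.66) and, with F2 IUO replicate 4, Per3 (1.84). F2 IUO replicate 4 held the lowest Arntl (3.85), Per2 (2.81) and Nr1d1 (25.04), and F1 IUO replicate 1 the lowest Nr1d2 (4.04).

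The tissue label was checked against marker genes. All 9 markers of striatal projection neurons were in the files and above 0 in every library, with a summed level of 408 to 1337 FPKM and Ppp1r1b, the gene of DARPP-32, the most abundant. Markers of neighbouring tissue varied more. The 6 thalamus markers, none at 0 in any library and Tcf7l2 the most abundant, summed to 118, 306, 131 and 212 FPKM in the 4 F1 PNO libraries and to 152, 92.1, 31.3 and 17.95 in F1 SAL. Choroid plexus markers summed to 4.62 FPKM in the lowest library and to 12243 in F2 IUO replicate 1, and the most abundant of them was Ttr, the transthyretin gene. F2 PNO replicate 1, which stood apart, had the highest sum of 4 oligodendrocyte markers, at 2893 FPKM beside a median of 1221. Its 5 cortex markers summed to 21.6 FPKM beside a median of 195, the lowest sum being 7.88 in F1 SAL replicate 3. The part of these tissue differences in its clock gene values was not tested. For the suprachiasmatic nucleus (SCN), seat of the master clock, the 5 markers in the files summed to between 1.43 and 8.24 FPKM. Vip was the most abundant of them, and Six6, Lhx1 and Prok2 were listed at 0 in some libraries. Six6 was highest in F2 PNO replicate 4, at 2.65 FPKM, and next in F2 IUO replicate 3, at 0.41.

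The first question was whether the clock genes differed between oxy-exposed and saline pups of F1, and none did after adjustment. Each comparison was fitted with limma on log2(FPKM + 0.1) across all genes of the libraries compared, with Benjamini-Hochberg adjusted p-values. The p-values measure the spread between pups, and in bulk tissue fewer cells of a type and less RNA per cell cannot be told apart. Between F1 IUO and F1 SAL, 0 of 10 members had an adjusted p under 0.05, as did 0% of the 17380 genes tested. An unadjusted p under 0.05 was found for 0 members and 3.91% of genes, the same with a mean at least 1.5-fold apart for 0 members and 2.45%, and groups that did not overlap for 0 members and 2.54%. The members' log2 differences ran from -0.37 (Nr1d2) to 0.17 (Cry1), with 5 positive and 5 negative and a median of -0.01 beside 0.01 for all genes. For Dbp the 95% interval was -0.29 to 0.20 and for Arntl -0.18 to 0.33, while for Nr1d2 it ran from -1.11 to 0.37. The Nr1d2 value rests on F1 IUO replicate 1, without which the difference was 0.01 and the lowest of the members was Per3 at -0.41 (unadjusted p = 0.0971 in limma).

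Per3, a PER family member that is dispensable for the core loop, gave the smallest p of any member and pair of groups. Its levels were 4.92, 5.69, 5.19 and 5.38 FPKM in F1 SAL and 3.78, 3.03, 4.12 and 3.67 in F1 PNO. Every F1 PNO library was below every F1 SAL library. The log2 difference was -0.53 (SE 0.134, 95% interval -0.83 to -0.23), with an unadjusted p of 0.00302 and an adjusted p of 0.231 in limma. The exact permutation test of 4 against 4 libraries gave 0.0286, the smallest two-sided p this design allows. In F1 IUO, Per3 stood at 5.08, 5.00, 4.59 and 2.70 FPKM, overlapping F1 SAL.

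Nr1d2 lay in the other direction in the same comparison. It stood at 13.9, 12.4, 11.7 and 9.54 FPKM in F1 SAL and at 13.5, 14.5, 13.9 and 15.7 in F1 PNO, so the groups overlapped. The log2 difference was 0.29 (SE 0.125, 95% interval 0.01 to 0.57), with an unadjusted p of 0.0467, an adjusted p of 0.349 and an exact permutation p of 0.0857. With the thalamus markers as a covariate the Nr1d2 difference was 0.06 (unadjusted p = 0.646 in limma), that of Per3 -0.45 (unadjusted p = 0.0350, adjusted p = 0.932) and that of Nr1d1 -0.31 (unadjusted p = 0.0383, adjusted p = 0.932). In 1 fit of all 24 libraries the Per3 difference was the same, with an unadjusted p of 0.0831. Leaving out 1 library at a time kept Per3 between -0.59 and -0.45, with an unadjusted p of at most 0.0115 in limma, whereas Nr1d2 stayed under 0.05 only without F1 SAL replicate 1 (0.36, unadjusted p = 0.0169) and had an unadjusted p of 0.122 without F1 SAL replicate 4.

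In all, F1 PNO against F1 SAL gave 0 of 10 members with an adjusted p under 0.05, as for 0% of 17494 genes tested, and 2 with an unadjusted p under 0.05, where 13.9% of genes had one. In the same comparison 5 of 6 thalamus markers were higher and 3 of 6 hypothalamus markers and 1 of 9 striatal markers lower at an unadjusted p under 0.05. Neither of these 2 was at least 1.5-fold apart in mean FPKM (4.48% of genes met that rule), and the groups did not overlap for 1 member, Per3, and for 8.27% of genes. Clock had a wider ratio of means, at 1.08 ± 0.242 FPKM in F1 PNO and 1.74 ± 0.811 in F1 SAL (SD, n = 4), but its libraries overlapped and its unadjusted p was 0.0839. The Clock value leans on F1 SAL replicate 3, at 2.95 FPKM. Its log2 difference was -0.58, or -0.30 without that library (unadjusted p = 0.222 in limma). Dbp was at 61.7 ± 5.39 FPKM against 72.6 ± 8.76, with a log2 difference of -0.23 (95% interval -0.47 to 0.01) and an unadjusted p of 0.0586. The median over the members was -0.08 beside -0.05 for all genes.

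Between F1 IUO and F1 PNO the widest difference was again Nr1d2. It stood at 4.04, 12.1, 11.3 and 12.3 FPKM in F1 IUO, all below the F1 PNO libraries, for a log2 difference of -0.65 (SE 0.321, 95% interval -1.38 to 0.07), an unadjusted p of 0.0707 in limma and an exact permutation p of 0.0286. Without F1 IUO replicate 1, the library at 4.04, the difference was -0.27 with an unadjusted p of 0.0285 and an adjusted p of 0.237. No member had an adjusted p under 0.05 (0.133% of 17306 genes did) or an unadjusted p under 0.05 (16.5%), none met the 1.5-fold rule (7.08%), and Nr1d2 was the 1 member whose groups did not overlap (10.5%). Without both F1 IUO libraries that stood apart, 1 member, Nr1d2, had an unadjusted p under 0.05, and the share of all genes in that fit is not given here. Tissue markers moved in the same comparison. With the thalamus markers as a covariate the Nr1d2 difference was -0.07 (unadjusted p = 0.869 in limma, adjusted p = 0.949) and with the choroid plexus markers -0.69 (unadjusted p = 0.0574), while the part of hypothalamus and striatal markers was not tested. At an unadjusted p under 0.05, 5 of 6 thalamus markers were lower in F1 IUO (list median -1.72), and 5 of 6 hypothalamus markers (3.56) and 6 of 9 striatal markers (0.62) higher. The hypothalamus markers, of which Avp was the most abundant and Pmch, Otp and Agrp were each listed at 0 in at least 1 library, summed to 95.3, 131, 43.8 and 158 FPKM in F1 IUO and to 3.99, 5.65, 12.7 and 10.05 in F1 PNO, and Avp was higher with an adjusted p of 0.0468. Per1 was at 22.2 ± 3.83 FPKM in F1 IUO and 17.1 ± 4.401 in F1 PNO, a log2 difference of 0.40 (95% interval -0.07 to 0.87). Without F1 PNO replicate 2 it was 0.20 (unadjusted p = 0.231 in limma). Without F1 PNO replicate 3 it was 0.52 (unadjusted p = 0.0410, adjusted p = 0.237). In limma the Per1 difference was 0.03 with the thalamus markers as a covariate (unadjusted p = 0.926), and with same-numbered libraries as blocks its unadjusted p was 0.0272 (adjusted p = 0.248). With the thalamus markers as a covariate the member with an unadjusted p under 0.05 was Per2 (-0.51, unadjusted p = 0.0315, adjusted p = 0.348).

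**Figure D2:**
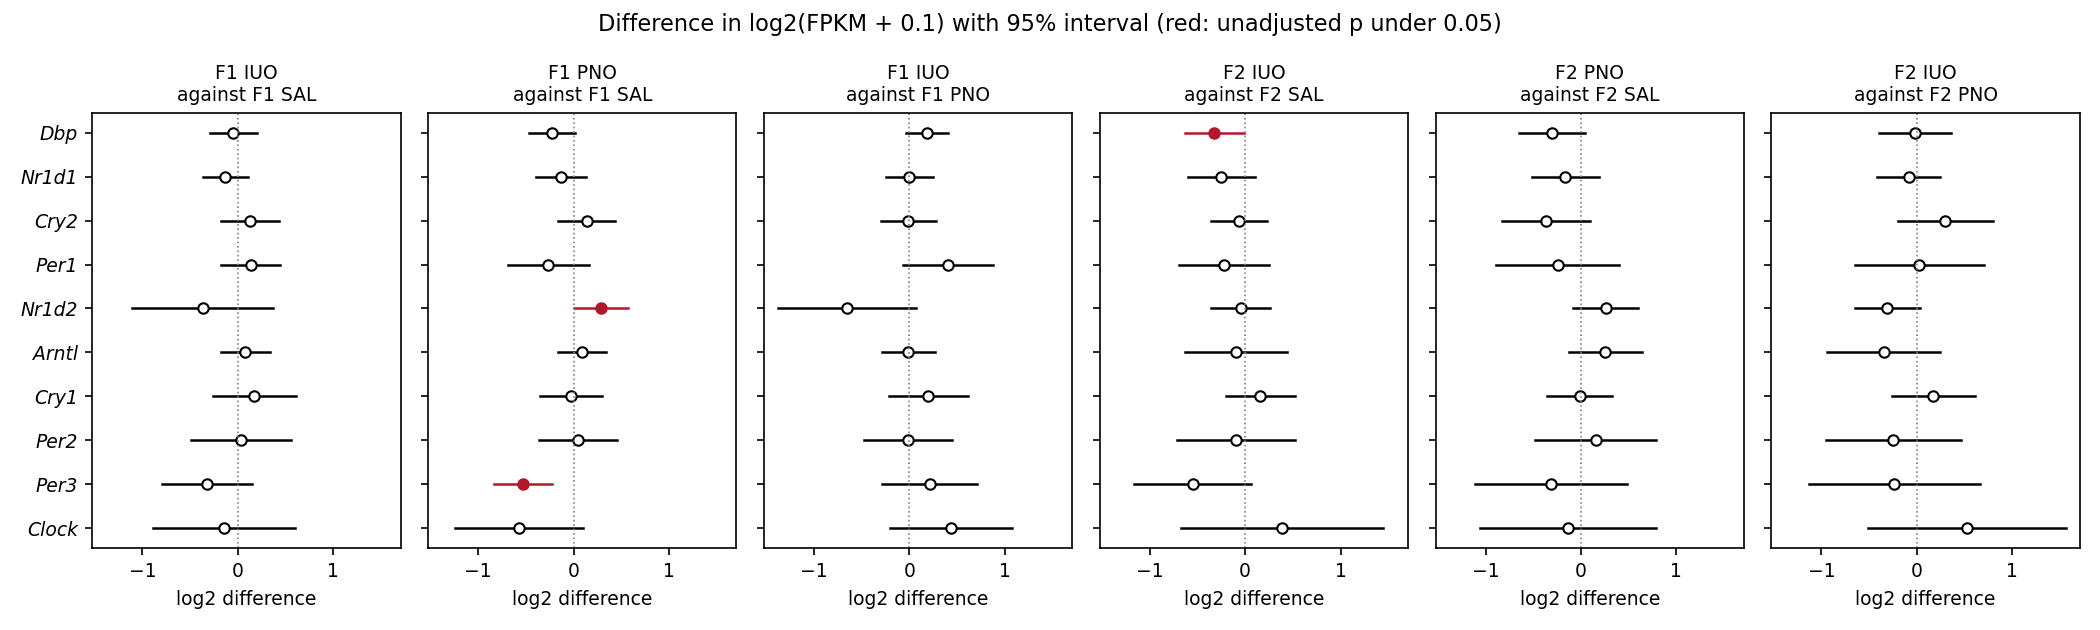
Log2 differences (x axis) of the 10 clock genes between exposure groups within F1 and within F2, as limma estimates with 95% intervals. Red marks an unadjusted p under 0.05, which 3 estimates had (Per3 and Nr1d2 in F1 PNO against F1 SAL, Dbp in F2 IUO against F2 SAL), and no adjusted p was under 0.05.

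In F2 the question was whether pups of exposed F1 mothers differed from pups of saline mothers, and Dbp was the member nearest to a difference. It stood at 75.4, 76.1, 97.7 and 83.6 FPKM in F2 SAL, the highest group mean of the series, and at 62.7, 73.5, 53.6 and 77.2 in F2 IUO. The groups overlapped, in that F2 IUO replicate 4 was above 2 of the F2 SAL libraries. The log2 difference was -0.32 (SE 0.138, 95% interval -0.63 to -0.01), with an unadjusted p of 0.0424, an adjusted p of 0.575 and an exact permutation p of 0.0857. The unadjusted p in limma was no longer under 0.05 without F2 SAL replicate 3 (-0.24, unadjusted p = 0.118), F2 SAL replicate 4 (-0.32, unadjusted p = 0.0788), F2 IUO replicate 1 (-0.30, unadjusted p = 0.0902) or F2 IUO replicate 3 (-0.22, unadjusted p = 0.120), nor with upper-quartile rescaling (-0.26, unadjusted p = 0.152). With same-numbered libraries as blocks it was 0.0799, and with the choroid plexus markers as a covariate 0.0610 (-0.31), F2 IUO replicate 1 being the library with 12243 FPKM of these markers. At an unadjusted p under 0.05, 4 of 5 cortex markers (list median 0.99) and, of the erythroid markers, both rows of Hba-a2 were higher in F2 IUO and 3 of 9 striatal markers (-0.56) lower, and their part in the Dbp difference was not tested. The cortex markers, Slc17a7 the most abundant and Emx1 listed at 0 in 1 library, summed to 289, 341, 169.6 and 283 FPKM in F2 IUO and to 166, 215, 131 and 167 in F2 SAL.

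Per3 was also lower in mean in F2 IUO, at 3.03, 4.15, 3.35 and 1.84 FPKM against 5.36, 3.56, 5.22 and 3.75 in F2 SAL. These groups overlapped, and the log2 difference of -0.55 had a 95% interval of -1.16 to 0.06 and an unadjusted p of 0.0732. Its lowest value, 1.84, was in F2 IUO replicate 4, a library that stood apart. Without F2 IUO replicate 2 the difference was -0.71 (unadjusted p = 0.0322 in limma, adjusted p = 0.522). No other single library left out brought that p under 0.05. Over the members of this comparison, 0 of 10 had an adjusted p under 0.05, as did 0% of 17097 genes, and 1, Dbp, had an unadjusted p under 0.05, where 8.49% of genes did. The 1.5-fold rule was met by 0 members and 4.19% of genes, and the groups did not overlap for 0 members and 5.11%. Of the members 2 were higher and 8 lower in F2 IUO, with a median of -0.10 beside -0.08 for all genes.

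Dbp was at 77.9, 59.7, 54.5 and 79.3 FPKM in F2 PNO, a spread of 2 high and 2 low libraries that overlapped F2 SAL. Its log2 difference from F2 SAL was -0.31 (95% interval -0.65 to 0.04, unadjusted p = 0.0762). At an unadjusted p under 0.05, 2 of 3 erythroid rows (list median 1.58) and 1 of 6 hypothalamus markers (-0.74) were higher in F2 PNO. Their part in the clock gene differences was not tested. This comparison uses the same F2 SAL libraries as the one before, so the pair of Dbp values are not independent. Cry2, a repressor, was at 15.6, 27.0, 25.2 and 32.1 FPKM in F2 PNO against 28.1, 31.9, 34.7 and 30.2 in F2 SAL, with its lowest value in the library that stood apart, for a log2 difference of -0.36 (95% interval -0.83 to 0.10) that was -0.15 without that library. No member had an adjusted p under 0.05 (0.00576% of 17367 genes), an unadjusted p under 0.05 (10.8%), the 1.5-fold rule (4.54%) or groups without overlap (7.01%). Without F2 PNO replicate 1, 2 members had an unadjusted p under 0.05, Dbp (-0.38, unadjusted p = 0.0360) and Nr1d2 (0.36, unadjusted p = 0.0243), with adjusted p-values of 0.399 and 0.381. Without F2 PNO replicate 4 there were 3, Cry2 (-0.50), Dbp (-0.39) and Per1 (-0.52), with adjusted p-values of 0.274 to 0.283. The share of all genes with such a p in these reduced fits is not given here, so both counts are a description.

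Between F2 IUO and F2 PNO the differences ran from -0.35 (Arntl) to 0.52 (Clock), each with an interval that spanned 0. Without F2 IUO replicate 4 the Arntl difference was -0.10, and without F2 IUO replicate 1 the Clock difference was 0.21. There were 0 members at an adjusted p under 0.05 (0% of 17090 genes), 0 at an unadjusted p under 0.05 (7.07%), 0 by the 1.5-fold rule (3.38%) and 0 without overlap (4.74%). Nr1d2 came nearest, at 10.2 ± 0.924 FPKM in F2 IUO and 12.6 ± 1.65 in F2 PNO (log2 difference -0.31, unadjusted p = 0.0743), and without F2 PNO replicate 1 it was -0.41 (unadjusted p = 0.0195, adjusted p = 0.594). Nr1d2 thus had its highest group mean in PNO in both generations, at 14.4 ± 0.957 FPKM in F1, although no adjusted p was under 0.05. With the thalamus markers as a covariate, PNO minus SAL was 0.06 in F1 and 0.26 in F2. IUO minus PNO was then -0.07 in F1 and -0.31 in F2.

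The generations were compared next, as F2 minus F1 within an exposure. Arntl, the activator, was at 7.56, 6.06, 6.88 and 7.34 FPKM in F2 SAL and 7.93, 7.79, 8.66 and 7.69 in F1 SAL. All F2 SAL libraries were below all F1 SAL libraries, by a log2 difference of -0.20 (SE 0.112, 95% interval -0.46 to 0.05), with an unadjusted p of 0.0997 and an adjusted p of 0.645 in limma, and an exact permutation p of 0.0286. In saline pups 0 members had an adjusted p under 0.05 (0.0343% of 17497 genes) or an unadjusted p under 0.05 (8.48%), 0 met the 1.5-fold rule (2.72%), and Arntl was the 1 member without overlap (4.98%). Dbp leaned the other way in saline pups, at 83.2 ± 10.3 FPKM in F2 and 72.6 ± 8.76 in F1 (log2 difference 0.20, 95% interval -0.07 to 0.46).

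For IUO pups the Arntl difference was -0.38 (95% interval -0.91 to 0.15), with F2 IUO replicate 4 at 3.85 FPKM and the other F2 IUO libraries at 7.52 to 7.94, beside 7.87 to 8.95 in F1 IUO, and the difference was -0.13 without that library. The widest difference was Per3 at -0.49 (unadjusted p = 0.140 in limma). It was -0.27 without F2 IUO replicate 4 and -0.70 without F1 IUO replicate 4 (unadjusted p = 0.0401, adjusted p = 0.340). Per1 had the smallest p (-0.35, unadjusted p = 0.111). It was -0.22 without F2 IUO replicate 3 and -0.49 without F2 IUO replicate 2 (unadjusted p = 0.0322, adjusted p = 0.271). Again 0 members had an adjusted p under 0.05 (0% of 16916 genes) or an unadjusted p under 0.05 (15.0%), 0 met the 1.5-fold rule (8.51%) and 0 were without overlap (10.7%). For PNO pups the widest difference was Cry2, at 24.98 ± 6.90 FPKM in F2 and 32.3 ± 4.29 in F1 (log2 difference -0.41, 95% interval -0.89 to 0.08). Without F2 PNO replicate 1 it was -0.20, and the widest was then Clock at 0.42 (unadjusted p = 0.134 in limma). There too 0 members had an adjusted p under 0.05 (0.0288% of 17370 genes) or an unadjusted p under 0.05 (4.76%), 0 met the 1.5-fold rule (3.24%) and 0 were without overlap (3.34%).

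Over the 3 exposures together, Arntl had the smallest p for generation, with a log2 difference of -0.21 (SE 0.103, 95% interval -0.42 to 0.00), an unadjusted p of 0.0546 and an adjusted p of 0.279. No member reached an adjusted p under 0.05 for generation (0% of 19134 genes) or an unadjusted p under 0.05 (18.4%). A limma F test among the 6 groups likewise gave 0 members at an adjusted p under 0.05 (0.141% of 19134 genes) and 0 at an unadjusted p under 0.05 (16.6%), Dbp being the lowest with 0.0752. Without the 4 libraries that stood apart, 2 members were under 0.05 unadjusted in that test, Dbp (0.0421) and Nr1d2 (0.00525), with adjusted p-values of 0.273 and 0.165. For generation the member under 0.05 was then Cry1 (0.22, unadjusted p = 0.0299 in limma, adjusted p = 0.437). Arntl, lowest in F2 IUO replicate 4 among those libraries, was not under 0.05 there. The share of all genes in these reduced fits is not given here, so the counts are a description.

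Whether an exposure acted differently in the 2 generations was tested as an interaction. For IUO, 0 members had an adjusted p under 0.05 (0% of 18437 genes) or an unadjusted p under 0.05 (5.15%). For PNO the counts were 0 (0% of 18608 genes) and 0 (4.06%), with Cry2 the nearest at a log2 difference of -0.50 (95% interval -1.05 to 0.04, unadjusted p = 0.0681), or -0.29 without F2 PNO replicate 1 (unadjusted p = 0.134). Per3, which separated F1 PNO from F1 SAL, had a PNO interaction of 0.22 with an interval of -0.62 to 1.05, so a difference between the generations was not detectable with these libraries.

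Of the 90 pairs of a member and a comparison of 2 groups, 3 had an unadjusted p under 0.05 and 3 were without overlap, in each case 3.33%, where 3.91% to 16.5% of all genes had such a p and 2.54% to 10.7% were without overlap in the 9 comparisons, which share groups. The widest intervals belonged to Clock, reaching 1.56 on the log2 scale, and the narrowest to Dbp and Nr1d1.

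A second use of these genes is as a reading of how alike the pups of a group were. The SD of log2(FPKM + 0.1) between libraries of a group, pooled over the 6 groups, had a median of 0.30 over the 10 members and 0.30 over 13551 genes, with 5 members above and 5 below that median. Nr1d1 (0.19) and Dbp (0.19) were among the steadier genes, with 17.7% and 17.9% of genes having a smaller SD. Cry1 (0.22), Arntl (0.25) and Cry2 (0.25) were also below the median. Nr1d2 (0.35), Per2 (0.37), Per1 (0.37), Per3 (0.42) and Clock (0.57) were above it, with 84.1% of genes having a smaller SD than Clock. For comparison, the immediate-early gene Fos had an SD of 0.64 and the thalamus marker Tcf7l2 one of 1.39.

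**Figure D3:**
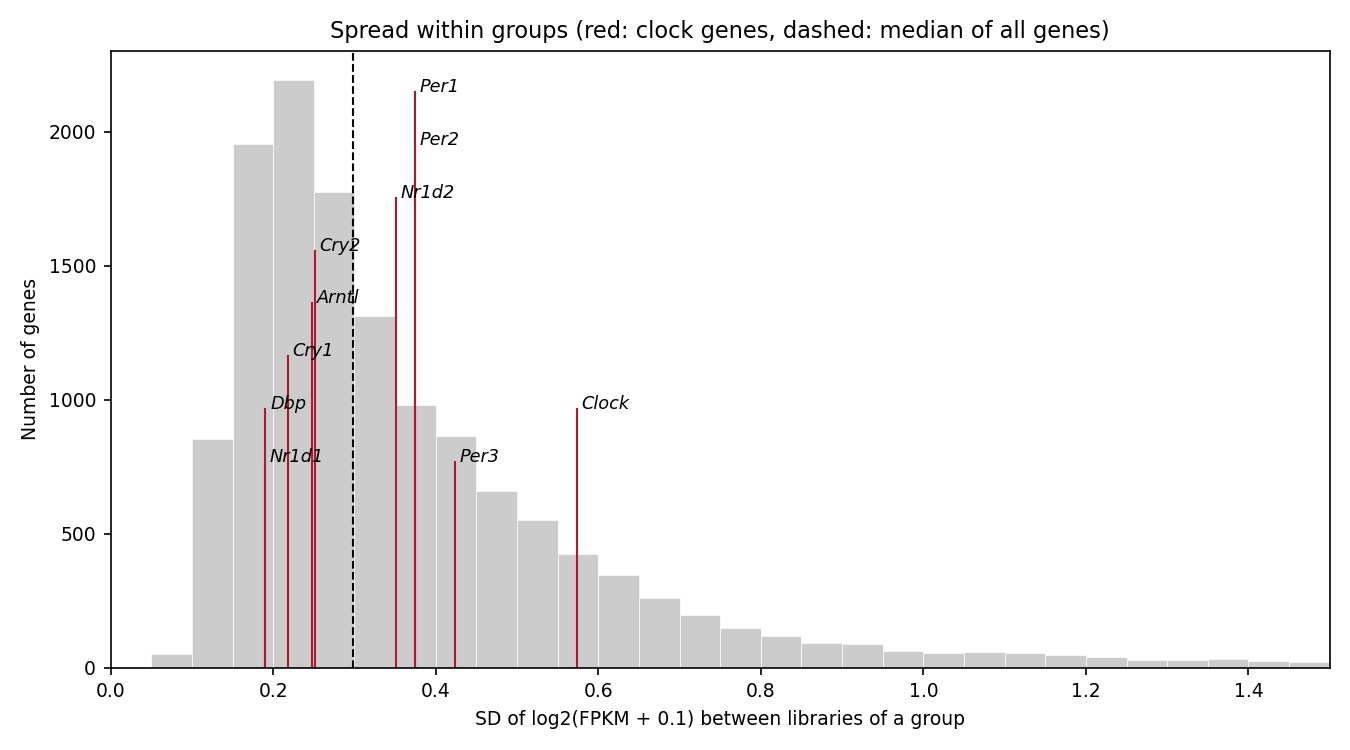
Number of genes (y axis) by the SD of log2(FPKM + 0.1) between libraries of a group (x axis, in steps of 0.05), for 13551 genes, of which 206 lie beyond the right edge. Red lines, whose height carries no value, mark the 10 clock genes, from Nr1d1 and Dbp at 0.19 to Clock at 0.57, and the dashed line the median of all genes at 0.30.

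Since Dbp and Arntl peak at opposite times, their difference on the log2 scale was taken as a reading for each library. It was 3.15 ± 0.40 over all libraries (SD, n = 24). In F1 SAL it was 3.003, 3.42, 3.08 and 3.13, in F1 PNO 2.95, 2.60, 3.11 and 2.69, and in F1 IUO 2.87, 3.25, 2.99 and 3.02. In F2 SAL it was 3.30, 3.63, 3.81 and 3.49, in F2 PNO 3.49, 2.48, 2.78 and 3.25, and in F2 IUO 2.97, 3.25, 2.82 and 4.29. All F2 SAL libraries were above all F1 PNO and F1 IUO libraries and overlapped F1 SAL, F2 PNO and F2 IUO. F2 SAL was not compared with F1 PNO or F1 IUO above, and no share over all genes is given, so this is a description. The overlap with F2 PNO and F2 IUO came from F2 PNO replicate 1 (3.49) and F2 IUO replicate 4 (4.29), 2 of the libraries that stood apart, while the other exposed F2 libraries were at 2.48 to 3.25. The reading of 4.29 belongs to F2 IUO replicate 4, where Dbp was 20.04 times Arntl, and without the 4 libraries that stood apart the readings ran from 2.48 to 3.81.

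**Figure D4:**
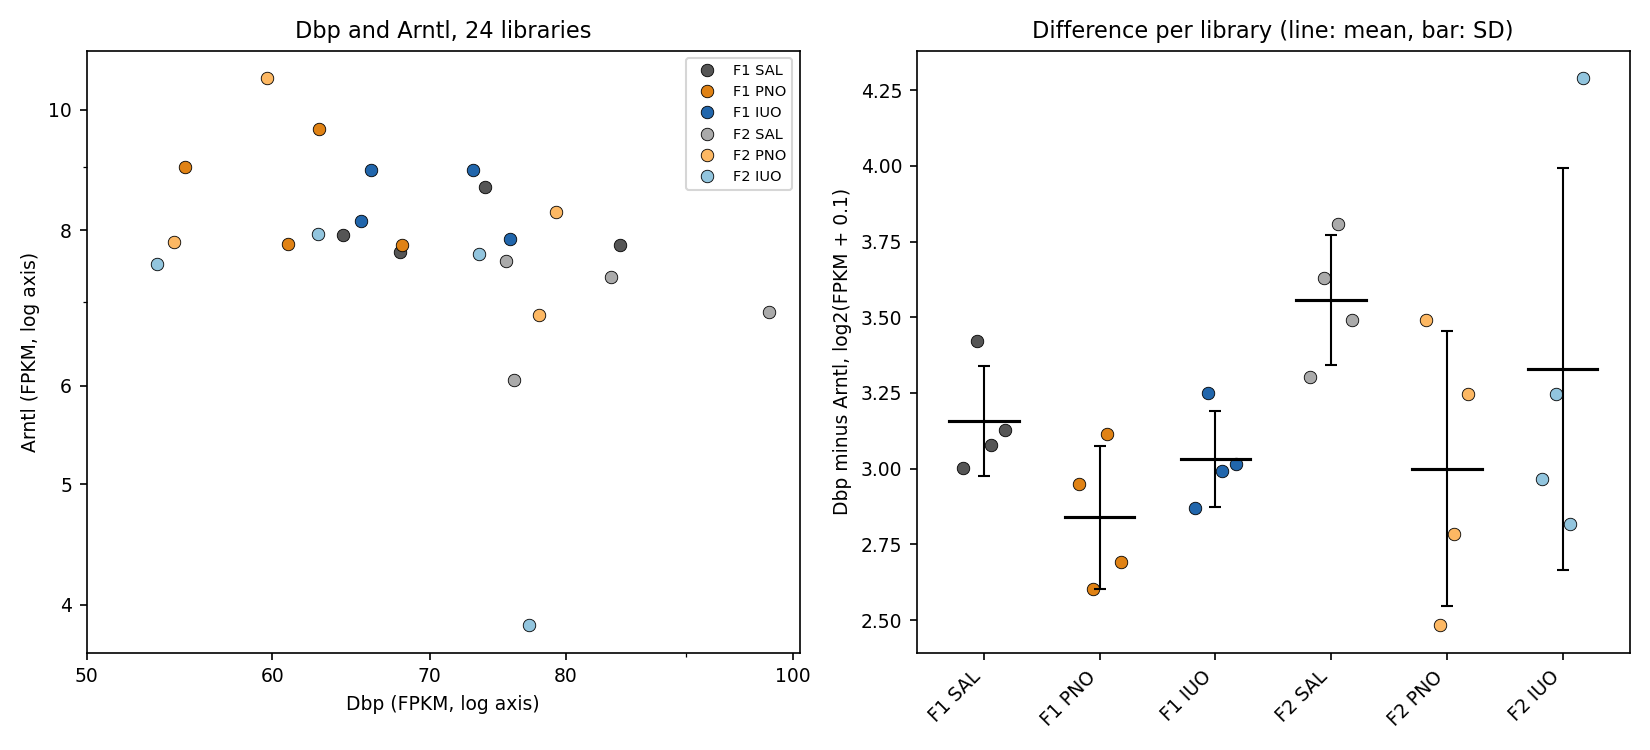
Left, Arntl against Dbp in FPKM (both axes logarithmic) in 24 libraries, coloured by group. Right, the difference Dbp minus Arntl in log2(FPKM + 0.1) for each library with the group mean (line) and SD (bar), highest in F2 IUO replicate 4 at 4.29 and lowest in F2 PNO at 2.48.

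Over the 24 libraries, 6 relations between members, or between Per1 and a marker of another input, were tested with 100000 permutations each. None had an adjusted p under 0.05 over the 6. Dbp and Arntl had r = -0.39 (permutation p = 0.0578, adjusted p = 0.116) and Spearman's rho = -0.50 (permutation p = 0.0136, adjusted p = 0.0818). Without the 2 libraries farthest from the median of Dbp (F2 SAL replicate 3 and F2 IUO replicate 3), r was -0.43 (permutation p = 0.0422), and it was -0.33 within F1 and -0.37 within F2 (permutation p = 0.297 and 0.249).

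Dbp and Nr1d1, which share their activator and peak close together in adults, had r = 0.24 (permutation p = 0.257, adjusted p = 0.379) and rho = 0.10 (permutation p = 0.630), with r = 0.09 without the same 2 libraries, 0.06 within F1 (permutation p = 0.862) and 0.33 within F2 (permutation p = 0.302). Dbp and Per3 had r = 0.21 (permutation p = 0.316, adjusted p = 0.379) and rho = 0.33 (permutation p = 0.112), with 0.12 without those 2 libraries, 0.50 within F1 (permutation p = 0.103) and 0.20 within F2 (permutation p = 0.521). Without the 4 libraries that stood apart, the value for Dbp and Per3 was r = 0.65 (adjusted permutation p = 0.0113), a choice made after seeing the data. Over all 24 libraries with group means removed, r was 0.003 for Dbp and Per3, 0.009 for Dbp and Nr1d1 and -0.39 for Dbp and Arntl.

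Per2 and Arntl, whose products act on opposite sides of the loop, had r = 0.47 (permutation p = 0.0153, adjusted p = 0.0879) and rho = 0.34 (permutation p = 0.105). That relation rests on F2 SAL replicate 4 and F2 IUO replicate 4, since without them r was 0.24 (permutation p = 0.293), and it was -0.25 within F1 (permutation p = 0.425) and 0.62 within F2 (permutation p = 0.0156), the generation that holds both of these libraries. Per1 and the immediate-early gene Fos had r = 0.44 (permutation p = 0.0293, adjusted p = 0.0879) and rho = 0.28 (permutation p = 0.180), but r = 0.21 without F1 PNO replicate 2 and F2 PNO replicate 1, 0.13 within F1 (permutation p = 0.700) and 0.58 within F2 (permutation p = 0.0413). Per1 and Tsc22d3, a glucocorticoid target, had r = -0.08 (permutation p = 0.710, adjusted p = 0.710) and rho = -0.09 (permutation p = 0.659), with -0.02 without the same 2 libraries, -0.18 within F1 (permutation p = 0.559) and 0.04 within F2 (permutation p = 0.901). With group means removed, r was 0.39 for Per2 and Arntl, 0.49 for Per1 and Fos and -0.008 for Per1 and Tsc22d3. No p was taken for these centred values.

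The genes whose pattern was most like that of Dbp and of Arntl were taken by Pearson's r over the 24 libraries, after removing group means, among 13551 genes. Such a list holds the extremes of many correlations and is given as a description. For Dbp the highest were Rasd2 (0.78), a striatal GTP-binding protein gene, Ankmy2 (0.75), AC135389.1 (0.68), Aatf (0.67) and Rbfa (0.67), and the lowest Acvr1 (-0.70), Pmaip1 (-0.69), Abcc9 (-0.66), Sptssa (-0.65) and Slc19a2 (-0.65). None of these 10 belongs to the clock lists used here, and among the members the closest to Dbp was Per1 at 0.32 and the farthest Arntl at -0.39. For Arntl the highest were Phf2 (0.90), Jmjd4 (0.86), LOC689986 (0.86), AABR07030603.1 (0.86) and Col25a1 (0.86), and the lowest AABR07030162.1 (-0.81), Anapc16 (-0.77), Chtop (-0.76), mrpl11 (-0.74) and Dnajc1 (-0.73). Among the members Per3 was closest to Arntl at 0.51, followed by Nr1d1 at 0.44. These values lean on F2 IUO replicate 4, where Arntl was lowest. Without it, a choice made after seeing the data, the 5 genes at the high end had r of 0.56 to 0.67 with Arntl and the 5 at the low end -0.66 to -0.37, while Per3 was at 0.31 and Nr1d1 at 0.23. The members closest to Arntl were then Cry1 at 0.36 (0.16 with all 24 libraries) and Clock at 0.34 (0.42), so the order of the members changed.

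Beyond the members, a wider list of 20 clock genes was examined, with partners of Clock and Arntl, nuclear receptors, other D-box factors and the enzymes that modify PER and CRY. None had an adjusted p under 0.05 in any comparison. Among the 17 whose level was high enough to measure spread, Csnk1d, a casein kinase that phosphorylates PER proteins, had the smallest SD at 0.13 and Hlf, a D-box factor, the largest at 0.67.

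Tef, a D-box transcription factor related to Dbp, had an unadjusted p under 0.05 in more comparisons than any other gene of the wider list. It stood at 34.2, 38.9, 38.1 and 38.0 FPKM in F2 SAL, at 27.2, 34.9, 27.2 and 26.7 in F2 IUO and at 29.1, 29.8, 28.0 and 36.0 in F2 PNO. In each exposed group 1 library reached into the F2 SAL range, and the F2 SAL libraries serve both comparisons. The log2 difference was -0.37 (SE 0.113) in F2 IUO, with an unadjusted p of 0.00888 and an adjusted p of 0.497 in limma, and -0.28 (SE 0.112) in F2 PNO, with 0.0315 and 0.433. Cortex, erythroid and striatal markers moved in the F2 IUO comparison, and erythroid and hypothalamus markers in that of F2 PNO, as given above. Their part in the Tef differences was not tested. In F1 IUO Tef stood at 32.2, 39.5, 37.7 and 43.7 FPKM, a log2 difference of 0.08 from F1 SAL (unadjusted p = 0.553), and its IUO interaction was -0.45 (SE 0.171, unadjusted p = 0.0185, adjusted p = 0.924).

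In F1 PNO against F1 SAL, 3 of the 19 wider clock genes tested had an unadjusted p under 0.05, a share near the 13.9% of all genes, and their values are given as a description. Nampt, whose enzyme makes NAD and is itself a clock output, was higher (10.6, 12.48, 10.0 and 11.2 against 10.4, 8.79, 7.20 and 7.94 FPKM, log2 difference 0.37, adjusted p = 0.287). Nfil3, a D-box repressor, was higher in mean (0.46, adjusted p = 0.349), and Ciart, a repressor of CLOCK and BMAL1, lower (3.71, 3.47, 4.03 and 3.59 against 5.52, 6.07, 3.87 and 4.70 FPKM, -0.42, adjusted p = 0.305). Nfil3 was at 5.24, 3.88, 5.52 and 4.44 FPKM in F1 PNO and at 4.29, 2.40, 3.85 and 3.40 in F1 SAL. For all 3 genes the groups overlapped. Thalamus, hypothalamus and striatal markers moved in this comparison, as given above, and their part in the differences of these genes was not tested. The median over the tested genes of the list was -0.01 beside -0.05 for all genes.

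In the other exposure comparisons of the wider list, 0 of 19 tested genes had an unadjusted p under 0.05 in F1 IUO against F1 SAL (3.91% of all genes did) and 1 of 18 in F1 IUO against F1 PNO (Tef, higher in IUO, beside 16.5%). The counts were 2 of 18 in F2 IUO against F2 SAL (Tef and the deubiquitinase Usp2, both lower in IUO, beside 8.49%), 1 of 18 in F2 PNO against F2 SAL (Tef, beside 10.8%) and 0 of 18 in F2 IUO against F2 PNO (7.07%). Between generations 3 of 18 were lower in F2 IUO than in F1 IUO at that level (Tef, Rora and Bhlhe41, beside 15.0% of all genes), with a list median of -0.31 beside -0.09 for all genes. In that comparison 5 of 9 striatal markers were lower (list median -0.72) and 2 of 5 cortex markers higher (0.32) at an unadjusted p under 0.05, and their part was not tested. At the same level 1 of 18 was lower in F2 SAL than in F1 SAL (Ciart, -0.57, beside 8.48%). Over the 3 exposures Nampt was lower in F2 (-0.34, unadjusted p = 0.00818, adjusted p = 0.177), as were Fbxl21 and Arntl2 at an unadjusted p under 0.05, a level that 18.4% of all genes reached. Arntl2 lay near the floor, at a mean of 0.0846 FPKM and at 0 in some libraries. In F2 it reached 0.1 FPKM only in F2 PNO replicates 2 (0.18) and 4 (0.23). It thus passed the filter through F1, where it was higher, and its p is not read as a result.

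**Figure D5:**
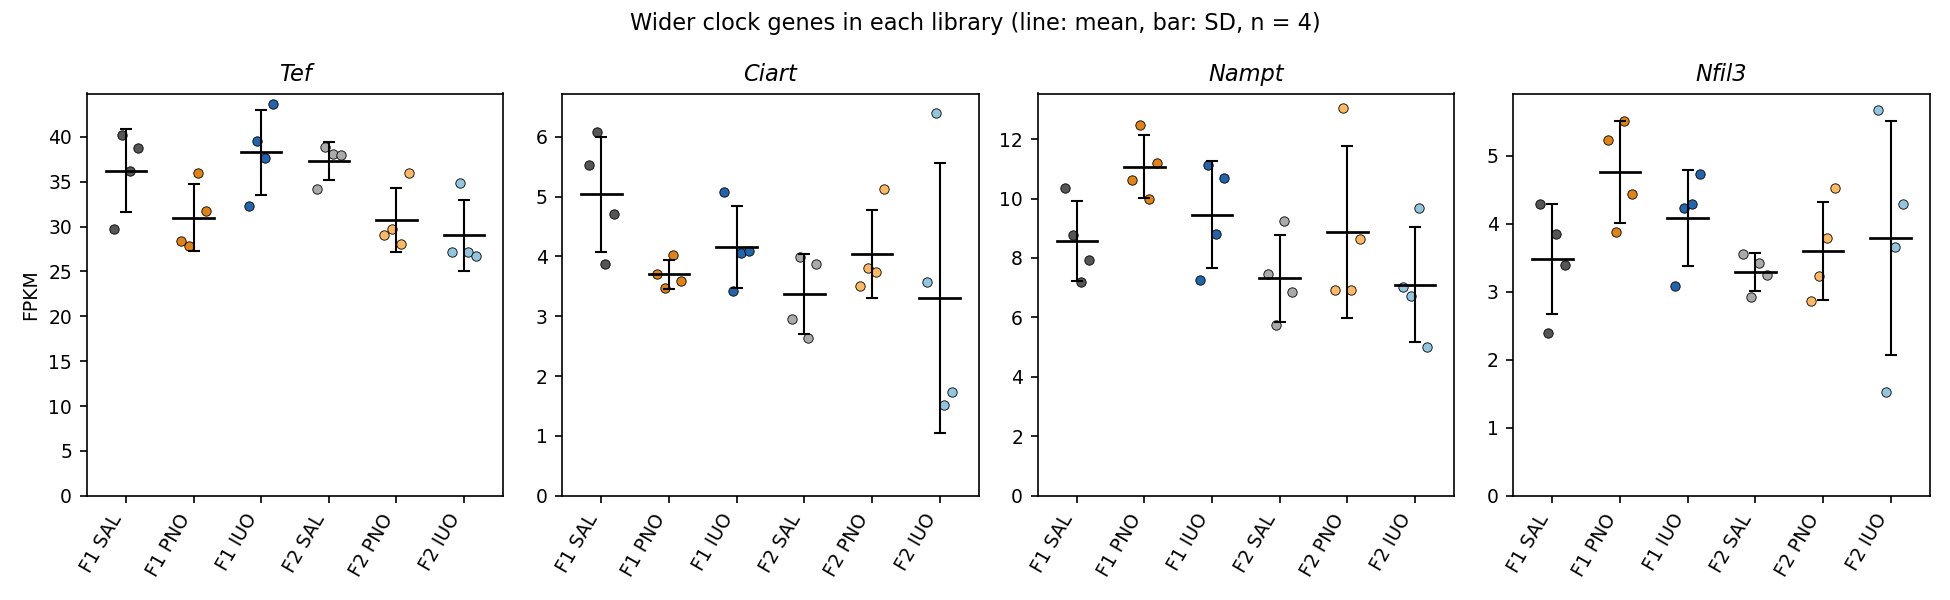
FPKM (linear axis from 0) of Tef, Ciart, Nampt and Nfil3 in the 4 libraries of each of the 6 groups (dots) with the group mean (line) and SD (bar). Tef was at 34.2 to 38.9 FPKM in F2 SAL and had 1 library reaching that range in F2 IUO and 1 in F2 PNO.

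Per1 answers to neuronal activity and stress hormones as well as to the clock, so genes of those inputs were read beside it. Of 8 immediate-early genes, 0 had an adjusted p under 0.05 in any comparison. At an unadjusted p under 0.05, Arc (0.61) and Dusp1 (0.52) were higher in F2 IUO than in F2 SAL, Dusp1 (0.73) in F2 PNO than in F2 SAL, and Egr2 (0.73) and Nr4a1 (0.44) in F1 IUO than in F1 PNO, all as log2 differences. These are 2, 1 and 2 of 8 genes, where 8.49%, 10.8% and 16.5% of all genes had such a p, and 4 of 5 cortex markers were also higher in F2 IUO than in F2 SAL, whose part was not tested. The list median in F2 IUO against F2 SAL was 0.41 beside -0.08 for all genes, whereas Per1 there was -0.22 (95% interval -0.69 to 0.25). Of 6 glucocorticoid targets 0 had an adjusted p under 0.05, and Nfkbia had an unadjusted p under 0.05 between generations (0.23 over the 3 exposures, adjusted p = 0.193), as did 18.4% of all genes. Plin4 was listed at 0 in some libraries.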

How the data were processed

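The authors aligned and assembled the reads and deposited 1 FPKM value per gene and library, made by StringTie on a transcriptome merged over all samples. HISAT2, StringTie, SAMtools and edgeR are named in the submitters' processing notes with no versions, and the genome build of the files is not given in the sources used here. FPKM are not counts, so edgeR was not used. The FPKM of a library summed to 535866 to 766781 and 4782 to 7532 genes were at 0. Read depth is unknown and counting error is therefore not stated. No pair of libraries was identical.

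Comparisons used limma 3.58.1 in R 4.3.3 (eBayes with a trend) on log2(FPKM + 0.1), fitted across all genes that reached 0.1 FPKM in 4 libraries or more of the groups compared, with two-sided p-values adjusted over those genes. The 1.5-fold rule takes an unadjusted p under 0.05 and a 1.5-fold ratio of mean FPKM, after the study's methods. The fit was tested on simulated data. Exact permutation and correlation tests used scipy on the same log2 scale. Alternatives were a pseudocount of 1, 2 other filters, upper-quartile rescaling, 1 fit of all 24 libraries, thalamus or choroid plexus markers as a covariate, same-numbered libraries as blocks and leaving out each library. Leaving out the 4 libraries under 0.93, and single libraries in the correlations and in the list of genes most like Arntl, were added after seeing the data. The members and gene lists were chosen with earlier results of these data known. All members, the genes of the lists with an unadjusted p under 0.05, and the 5 genes at each end of the correlation with Dbp and with Arntl were eligible to be named.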

Additional observations from a re-analysis of the deposited data

Results flagged for a closer look

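Each measure was checked in each group of 4 libraries for a library whose gap to its nearest neighbour took up most of the group's range (above the 95% critical value of Dixon's ratio). Chance alone picks out about 1 in 20 groups, and 96 groups were checked. Among the clock genes, Clock in F1 SAL replicate 3 was at 2.95 FPKM with the other libraries at 1.3 to 1.39 (ratio 0.945), Arntl in F2 IUO replicate 4 at 3.85 with the others at 7.52 to 7.94 (0.897), and Nr1d2 in F1 IUO replicate 1 at 4.04 with the others at 11.3 to 12.3 (0.882). F2 IUO replicate 4 and F1 IUO replicate 1 are among the 4 libraries least correlated with the rest, and F1 SAL replicate 3 is not.

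For the summed choroid plexus markers, 1 library in each of the 6 groups was far above the others. The ratio was 0.999 for F1 SAL replicate 1 (5197 FPKM), 0.936 for F1 PNO replicate 3 (3809), 0.879 for F1 IUO replicate 3 (8148), 0.875 for F2 SAL replicate 3 (82.8), 0.998 for F2 PNO replicate 4 (6802) and 0.999 for F2 IUO replicate 1 (12243). None of these 6 libraries is among the 3 with an outlying clock gene value. F2 PNO replicate 4 held the highest Per1 (30.2 FPKM), Per2 (6.39) and Per3 (6.31) of the series, and F2 IUO replicate 1 the highest Clock (3.51) and Cry1 (8.74). F2 PNO replicate 4 also had the highest sum of the 8 immediate-early genes (275.19 FPKM). That library also had the highest Six6, an SCN marker, at 2.65 FPKM. The part of choroid plexus tissue, of SCN tissue and of neuronal activity in those values was not tested.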

How the results depend on the processing

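No member had an adjusted p under 0.05 in limma in any comparison or alternative, the smallest being 0.144. Counts at an unadjusted p under 0.05 moved as follows, and the cause was not tested. The share of all genes with such a p is not given for the alternatives, so the counts are a description. F1 PNO against F1 SAL, 2 members, gave 0 in 1 fit of all 24 libraries, 1 with choroid plexus markers as a covariate and 1 with the replicate block. F1 IUO against F1 PNO, 0 members, gave 1 with upper-quartile rescaling (also 1 by the 1.5-fold rule), all libraries in 1 fit, thalamus markers or the apart libraries left out, and 2 with the block. F2 IUO against F2 SAL, 1 member, gave 0 with upper-quartile rescaling, choroid plexus markers or the block and 2 with thalamus markers. F2 PNO against F2 SAL, 0 members, gave 1 with upper-quartile rescaling and 2 with all libraries in 1 fit, choroid plexus markers or the apart libraries left out. From 0, the count became 1 with upper-quartile rescaling in F2 IUO against F2 PNO (also with the apart libraries left out), F2 PNO against F1 PNO (also in 1 fit of all libraries), the 6 groups, the generation term (also with the apart libraries left out) and the PNO interaction (also with choroid plexus markers), and 1 in F2 IUO against F1 IUO with thalamus markers or 1 fit of all libraries. The 6 groups gave 2 with the apart libraries left out. The block changed no other count. Same-numbered libraries correlated between -0.36 and 0.19 in their deviations. In no comparison were all 4 pairs over 0.1, and in F1 IUO against F1 PNO 3 of 4 were. A pairing by number was thus not shown, and correlations this low cannot exclude it.

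Leaving out each library in turn moved the unadjusted count between 1 and 3 in F1 PNO against F1 SAL, 0 and 2 in F1 IUO against F1 PNO, F2 IUO against F2 SAL and the 6 groups, 0 and 3 in F2 PNO against F2 SAL, and 0 and 1 in F2 IUO against F2 PNO, all 3 comparisons of F2 with F1, the generation term and the PNO interaction. The 1.5-fold count moved between 0 and 1 in F1 PNO against F1 SAL, F1 IUO against F1 PNO, F2 IUO against F2 SAL and F2 IUO against F1 IUO. The correlation of Per2 and Arntl ran from 0.27 to 0.54 (adjusted p = 0.0284 without F1 IUO replicate 4 and 0.0491 without F2 IUO replicate 3), Per1 and Fos from 0.29 to 0.51 (0.0491 without F2 IUO replicate 3) and Per1 and Tsc22d3 from -0.17 to 0.0105 (without F2 SAL replicate 1). With the apart libraries left out, Dbp and Per3 had r = 0.65 and Per1 and Tsc22d3 r = 0.13.

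Upper-quartile rescaling shifted all log2 differences by -0.07 to 0.12 and turned the sign of 10 of 90 member differences, among them Dbp, Nr1d1 and Cry2 in F2 IUO against F1 IUO. The number of reads is unknown, and 4 libraries a group limit exact tests to p = 0.0286.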
